A study of Mus musculus with 48 samples.

Results

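RNA of lysates from 4T1 cells that expressed FLAG-tagged CNOT7 with the D40A substitution was compared with RNA of lysates from 4T1 cells that expressed wild-type FLAG-CNOT7. The libraries were taken by their sample labels, with no use of measured values, and make up 9 of the 48 libraries of the series, 4 of D40A input (replicates 6, 8, 9 and 10) and 5 of CNOT7 input (replicates 6 to 10). It asks whether the level of transcripts in these cells depends on the deadenylase activity of CNOT7. No gene passed an adjusted p of 0.05 in either direction, with or without CNOT7 input replicate 10, a library in which many abundant gene models had lost nearly all of their counts.

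4T1 is a mouse mammary carcinoma cell line (strain label BALB/cfC3H, tissue label mammary gland). Both groups were cells selected with blasticidin after transduction with a lentivirus that carried human CNOT7 cDNA behind the murine Pol2 promoter. The labels and methods describe no removal of the cells' own Cnot7. For its transplant assays the paper chose transduced cultures with about equal CNOT7 and D40A protein. It does not say whether the sequenced lysates came from the same cultures. The D40A substitution inactivates the deadenylase. The 15 other inputs came from cells with the control vector, which holds no CNOT7, with E247A/Y260A (no TOB1 binding) or with M141R (no CNOT1 binding), 5 libraries each. The remaining 24 libraries are anti-FLAG precipitates. An input is a share of the cleared, non-ionic detergent lysate taken before the precipitation, depleted of ribosomal RNA and sequenced from a kit that keeps the strand.

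CNOT7 is a catalytic subunit of the CCR4-NOT complex, which shortens the poly(A) tail of messenger RNAs. Shortening of the tail is usually the first step of mRNA decay and is followed by removal of the cap and digestion from the 5′ end, or by digestion from the 3′ end by the exosome. CNOT1 is the scaffold of the complex, CNOT6 and CNOT6L are a second kind of deadenylase in it, and BTG and TOB proteins and RNA-binding proteins such as the ZFP36 family bring it to particular transcripts. A loss of deadenylase activity would be looked for as longer-lived, and therefore more abundant, target transcripts.

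The deposited values are whole numbers of reads per gene, between 337861 and 826768 per library among the 9 libraries, and 24.2% to 50.7% of them lay on 5 gene models. The counts need a statement on strand before any gene is named. In all 24 inputs, 67.5% to 77.1% of the counts lay on models whose exons overlap exons of another gene on the opposite strand, although these models were 26.8% of the models in the table. Genes that are usually among the most abundant in such cells had few counts on their own models over the 9 libraries, with 1 to 7 for Gapdh, 0 to 26 for Actb, 1 to 8 for Ldha, 4 to 30 for Rpl3, 7 to 69 for Eef1a1, 0 to 6 for Krt8, 0 to 8 for Krt18 and 0 to 2 for Vim. The strand setting of the counting is not given in the sources used here and its part in this was not tested. A value of a gene model in what follows is therefore the value of that model as deposited, and models that lie opposite the genes of a list are given beside it where they bear on the result.

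CNOT7 input replicate 10 stood apart. Over the 3848 tested models, log2 CPM (counts scaled to a common library size, with TMM factors) of this library correlated with those of the other 8 libraries at r of 0.46 to 0.55 across genes, against 0.76 to 0.95 for the pairs without it. Models whose opposite strand holds only an intron of another gene took 2.53% of its counts and 8.45% to 14.3% of the counts of the other 8 libraries. Among models at 100 CPM or more, its level divided by the mean of the other 4 CNOT7 inputs had a median log2 of −6.20 over 131 models with only an intron opposite, −1.25 over 799 models with an exon opposite and 0.10 over 59 models with nothing opposite. Among models with an exon opposite, span moved with the loss too. Their median was −0.33 for models under 5 kb and −2.59 for models over 100 kb. In the other classes the medians did not follow span in order. From the shortest to the longest span they were −7.83 (3 models), −5.43, −6.08 and −6.83 with only an intron opposite. With nothing opposite they were 0.84, −0.58, −0.38 and 0.74 (1 model). The model called Galnt2 in the files (Gm20388 in GENCODE M21, GRCm38 chr8:119910841-124345722) had 0 counts in this library and 32331 to 82580 in the other 8. D40A input replicate 10, the library with the same number, did not share the collapse of models with only an intron opposite (median −0.80 against the other 3 D40A inputs), but was lower too on models with an exon opposite (median −0.92). It had the next lowest share of counts on intron-only models (8.45%) and a like share on its 5 most counted models (50.2%, against 50.7%). For the edgeR comparison of D40A input with CNOT7 input, counts of calls and medians of gene lists are given with and without CNOT7 input replicate 10. Other comparisons are given in the setting named.

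**Figure D1:**
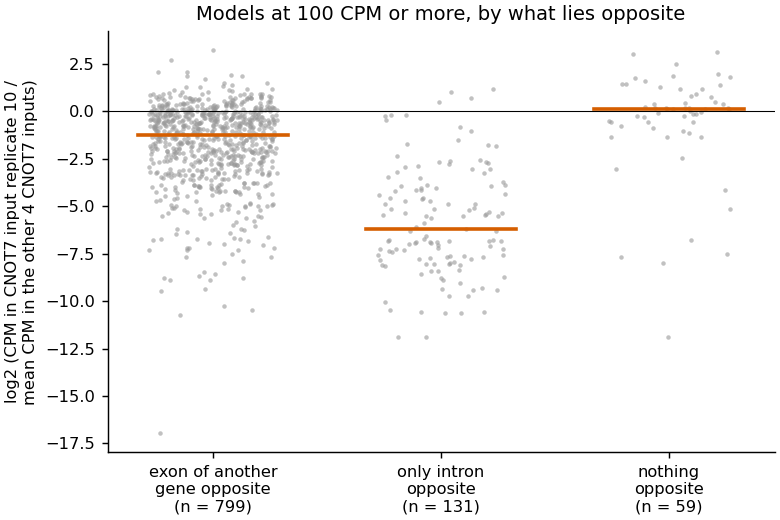
Each point is a gene model at 100 CPM or more, placed by whether another gene lies on its opposite strand, and the y axis is log2 of its CPM in CNOT7 input replicate 10 over its mean CPM in the other 4 CNOT7 inputs. The orange lines are medians: −1.25 with an exon opposite, −6.20 with only an intron opposite and 0.10 with nothing opposite.

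The replicate number left a larger mark than the construct. Without CNOT7 input replicate 10, libraries of the same number but of another construct correlated at r of 0.92 to 0.95 (3 pairs). Libraries of the same construct but another number correlated at 0.77 to 0.93 (12 pairs). D40A input replicate 10 set the low end of the second range, and has no same-numbered partner in the first. Same-construct pairs without it were at 0.84 to 0.93. In a fit over the 24 inputs that held both terms, the replicate number passed an adjusted p of 0.05 (edgeR's quasi-likelihood test) for 2670 of 3848 models (69.4%) and the construct, over all 5 constructs, for 0. What differed between the numbers is not stated in the labels. Since same-numbered libraries deviated together, counts of calls are also given from the fit with the replicate number as a block.

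The mouse Cnot7 model (GRCm38 chr8:40492540-40515847, minus strand) did not separate the groups. It had 276, 114, 173 and 136 CPM in D40A input replicates 6, 8, 9 and 10 and 303, 130, 176, 112 and 21.7 CPM in CNOT7 input replicates 6 to 10, so the groups overlapped and the lowest value was that of the library that stood apart. On the log2 scale the mean was 7.40 ± 0.54 (SD, n = 4) in D40A input and 6.87 ± 1.34 (SD, n = 5) in CNOT7 input, a difference of 0.53 (two-sided exact permutation p = 0.587, with 0.0159 as the smallest possible). Without CNOT7 input replicate 10 the CNOT7 mean was 7.42 ± 0.62 (SD, n = 4) and the difference −0.02 (exact permutation p = 0.943, with 0.0286 as the smallest possible). In the fit with the replicate block the log2 fold change was 0.25 with all libraries and −0.01 (95% interval −0.37 to 0.36) without CNOT7 input replicate 10. In the cells that carried no CNOT7 construct it was 121 to 198 CPM. Whether reads of the human cDNA could be counted on this model was not tested, so it does not check the labels.

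Of the models opposite Cnot7, the one that overlaps its exons was counted at a higher level. A further one, Vps37a, overlaps only the span of Cnot7 and had 0 to 4 counts in the 9 libraries. Zdhhc2, which encodes a palmitoyltransferase (chr8:40423815-40510268, plus strand), overlaps exons of Cnot7 and had 577 to 1220 counts in the D40A inputs, 777 to 2188 in CNOT7 input replicates 6 to 9 and 40 in replicate 10. Its log2 fold change of D40A input over CNOT7 input was 0.05 with all 9 libraries, −0.23 (95% interval −0.76 to 0.30) without CNOT7 input replicate 10 and −0.17 (−0.46 to 0.12) when the block was added. All 3 intervals held 0. In the plot of both models by library, replicate 6 was the highest for Cnot7 in each of the 5 constructs, and for Zdhhc2 replicate 8 or 9 was the highest in each.

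**Figure D2:**
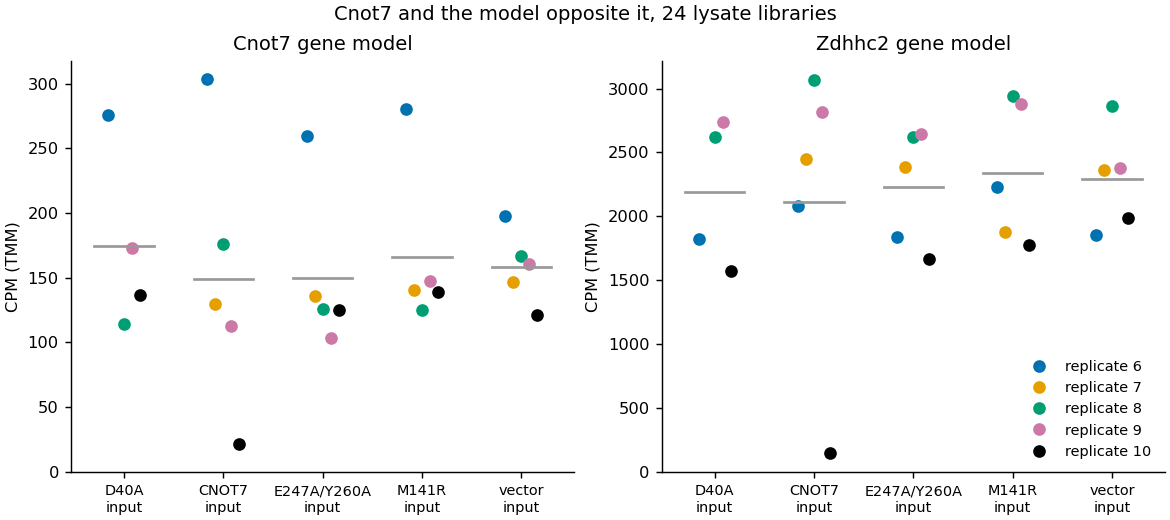
CPM (scaled by TMM) of the Cnot7 model and of the Zdhhc2 model opposite it in each of the 24 lysate libraries, coloured by replicate number, with the group mean as a grey line. Replicate 6 is highest for Cnot7 in each construct, and CNOT7 input replicate 10 is lowest in both panels, at 21.7 and 145 CPM.

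Other subunits of the complex were measured at few counts. Of 12 CCR4-NOT subunits with a row of counts, 5 passed the filter on low counts, and 0 passed the test in either direction. Of the 4 tested models opposite subunits 0 passed it, and 1 was below 0 at an unadjusted p under 0.05 with all libraries (1.3% of all tested models were at such a p) and 0 without CNOT7 input replicate 10. That one, named after its values were seen, was 4930513N10Rik opposite Cnot1, at a mean of 14.5 CPM, with a log2 fold change of −1.49 with all libraries and −1.40 without that one. Cnot1, the scaffold, had 7 to 16 counts in the D40A inputs and 6 to 27 in the CNOT7 inputs, and its log2 fold change was −0.18 (95% interval −1.06 to 0.71) with all libraries and −0.25 (−1.15 to 0.66) without CNOT7 input replicate 10. Cnot3, a regulatory subunit, gave 0.25 (−0.68 to 1.18) and 0.18 (−0.76 to 1.12). The deadenylase Cnot6l gave 0.41 (−0.72 to 1.53) and 0.33 (−0.86 to 1.52), and Cnot6 gave −0.10 (−1.39 to 1.19) with all libraries and did not pass the filter without that one. Each of these intervals reached past a 2-fold difference on at least one side. Of the BTG and TOB proteins, Btg1 gave −0.37 (−1.74 to 0.99) and Btg3 0.70 (−0.58 to 1.99) with all libraries, and −0.43 (−1.92 to 1.06) and 0.55 (−0.77 to 1.87) without CNOT7 input replicate 10. The Cxadr model opposite Btg3 gave −0.03 and −0.10. The better counted Usp37 model, whose exons lie opposite those of Cnot9, a subunit that binds regulatory proteins, had 945, 1035, 818 and 461 CPM in the D40A inputs and 906, 768, 1186 and 739 CPM in CNOT7 input replicates 6 to 9, with a log2 fold change of −0.12 (95% interval −0.62 to 0.39) without replicate 10, which was at 36.15 CPM. The groups overlapped.

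Of all 26899 models, 3848 passed the filter and 0 were called higher or lower at an adjusted p under 0.05 (0.0% of those tested, lowest adjusted p 0.9998). Without CNOT7 input replicate 10, 0 of 3798 were called (0.0%). At an unadjusted p under 0.05, 23 models had a higher and 27 a lower level in D40A input, 1.3% of those tested. Without that library 31 had a higher and 14 a lower level, 1.18%. With all libraries DESeq2 called 0 models too, with 29 models above and 27 below 0 at that unadjusted p. Without CNOT7 input replicate 10 DESeq2 called 0, with 26 above and 16 below 0. Limma-voom with quality weights, with all libraries, called 0, with 49 above and 30 below 0. The fit with the replicate number as a block also called 0 models with all 9 libraries (0.0%, lowest adjusted p 0.239) and 0 without CNOT7 input replicate 10 (0.0%, lowest adjusted p 0.0847). At an unadjusted p under 0.05 it held 100 higher and 95 lower models, 5.07%, and without CNOT7 input replicate 10 it held 139 higher and 63 lower, 5.32%. Against CNOT7 input without replicate 10, E247A/Y260A input, M141R input and vector input also had 0 called models, in the fits without and with the block. At an unadjusted p under 0.05 they had 30, 63 and 33 without the block and 154, 307 and 125 with it, beside 45 and 202 for D40A input. These comparisons share the CNOT7 inputs.

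The spread between replicates left wide intervals for many models. Half-widths of the 95% interval of the log2 fold change had a median of 1.017 over the tested models with all libraries, 0.97 without CNOT7 input replicate 10 and 0.69 when the block was added to the latter. The whole interval lay within 2-fold in either direction for 837 of 3848 models (21.8%) with all libraries, and for 2133 of 3798 (56.2%) with the block and without CNOT7 input replicate 10. It lay within 4-fold for 3684 of those 3798 models (97.0%). The fold changes themselves were small, with a median absolute log2 value of 0.20 and a 90th percentile of 0.63 in that fit. The intervals are not corrected for the number of models.

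**Figure D3:**
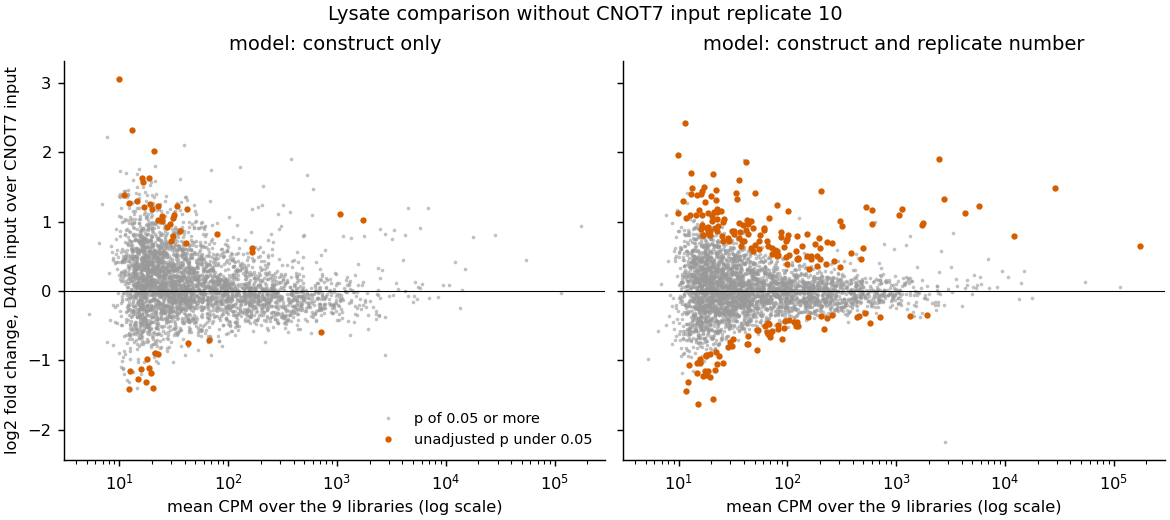
Log2 fold change of D40A input over CNOT7 input against mean CPM (log scale) for 3798 models, without CNOT7 input replicate 10, from the fit with construct alone (left) and with construct and replicate number (right). Orange points are models at an unadjusted p under 0.05, 45 on the left and 202 on the right, and no model passed the adjusted threshold in either panel.

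Of the genes that recruit the complex or act beside or after it in decay, 0 were called in any list. Of 26 RNA-binding proteins that recruit CCR4-NOT 6 were tested, and their median log2 fold change was 0.20 with all libraries and 0.17 without CNOT7 input replicate 10, against 0.04 and 0.05 over all tested models. Cpeb3, a cytoplasmic polyadenylation element binding protein, had 204, 128, 74 and 38 counts in the D40A inputs and 161, 140, 144, 57 and 8 in the CNOT7 inputs, so it varied more within a group than between the groups (log2 fold change 0.04, 95% interval −0.74 to 0.81, without replicate 10, and 0.28, −0.68 to 1.23, with it). The model opposite Zfp36l1, a protein that binds AU-rich elements, gave 0.04 (−0.47 to 0.56). The 4 tested deadenylases outside the complex had a median of −0.35 with all libraries, 0.18 without CNOT7 input replicate 10 and −0.15 with the block as well, so its sign depended on the setting. The 2 models opposite such genes had a median of −0.13 with all libraries and −0.25 without that one. Among the deadenylases Ccrn4l, the circadian deadenylase nocturnin, had 68 to 197 counts in D40A inputs and 64 to 254 in CNOT7 inputs. It gave 0.38 (−0.37 to 1.14) without CNOT7 input replicate 10, its highest library, and −0.27 (−1.18 to 0.63) with it. Edc3, an enhancer of decapping with exons opposite those of Clk3, gave −0.06 (−0.80 to 0.68). The 3 tested members of its list had a median of 0.19, and 0.33 with all libraries. The exosome list had 6 tested members with a median of −0.11, and −0.23 with all libraries. Exosc9, a core exosome subunit whose exons lie opposite those of the cell cycle gene Ccna2, gave 0.02 (−0.56 to 0.60).

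Transcripts that turn over fast held no called member either. Of 45 early-response genes with a row of counts, 9 were tested on their own models, with 0 called, 1 above 0 and 0 below 0 at an unadjusted p under 0.05 (1.18% of all tested models) and a median of −0.15 without CNOT7 input replicate 10, and −0.29 with it. With the block and without that library the split was the opposite one, 0 above and 2 below 0 (5.32% of all tested models, both directions), with a median of −0.35. Cxcl1, a chemokine whose mRNA carries AU-rich elements, had 14, 3, 3 and 4 counts in the D40A inputs and 26, 25, 12, 1 and 8 in the CNOT7 inputs, a log2 fold change of −1.01 (95% interval −2.33 to 0.31) without replicate 10. With the block as well it gave −1.14 (−2.09 to −0.20), at an adjusted p of 0.804 by edgeR's quasi-likelihood test, so it did not pass, and the groups overlapped. The opposite models were better counted. Gm11175, opposite Jund, had 671 to 5319 CPM in the D40A inputs and 1236 to 5281 in the CNOT7 inputs, with replicate 6 the highest in both groups, and its fold change was 0.01 without replicate 10 and 0.07 (−0.30 to 0.44) with the block. E230016M11Rik, opposite the growth arrest gene Gadd45a, gave 0.17 (−0.19 to 0.52) and Junos, opposite Jun, −0.14 (−0.59 to 0.32) in the same fit.

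None of the study's own lists held a called member. The first holds transcripts that fall as Cnot7 rises on arrays of tumour cells with raised or lowered Cnot7. Of 450 with a row of counts, 74 were tested without CNOT7 input replicate 10, with 50 above 0 and a median of 0.10, and the 82 models opposite them had 32 above 0 and a median of −0.06. With all libraries these medians were 0.09 and −0.07. Of the transcripts that rise with Cnot7, 61 were tested with a median of 0.07 and 44 opposite models with a median of 0.05 (0.03 and 0.05 with all libraries). Over all tested models the median without CNOT7 input replicate 10 was 0.05, with 2123 of 3798 above 0. The medians of these lists on own and on opposite models lay on both sides of 0.05. Transcripts with the study's 3-part motif had a median of 0.12 over 98 own models and −0.11 over 69 opposite models (0.10 and −0.11 with all libraries). Without CNOT7 input replicate 10, 61 of these own models and 20 of these opposite models were above 0. The list of CNOT7-bound transcripts was chosen on these same libraries, so its direction is no independent evidence, and like the motif list it holds transcripts that fall as Cnot7 rises. On it 23 members were tested, with a median of 0.57 with all 9 libraries and 0.35 without CNOT7 input replicate 10. With the block as well, it was 0.19. Without CNOT7 input replicate 10, 16 of these 23 were above 0. The 16 models opposite members of this list had medians of −0.11 and −0.07, with 7 above 0 without CNOT7 input replicate 10. Sorbs2, an adaptor protein of actin structures in that list, had 22, 28, 20 and 65 counts in the D40A inputs and 18, 41, 27, 17 and 3 in the CNOT7 inputs, and 1 high value in D40A input replicate 10 set it apart (log2 fold change 0.80, 95% interval −0.26 to 1.85, without CNOT7 input replicate 10).

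In the lists of cell programmes 0 members were called. Without CNOT7 input replicate 10 the median was 0.12 over 20 cytosolic ribosomal protein genes, 0.08 over 14 nuclear genes of oxidative phosphorylation, −0.05 over 10 cell cycle genes, −0.00 over 5 hypoxia and glycolysis genes, −0.01 over 9 unfolded protein and amino-acid stress genes, 0.08 over 3 cholesterol synthesis genes and −0.15 over 5 heat-shock chaperones. It was 0.26 over 6 interferon-stimulated genes, 0.51 over 2 p53 targets, 0.15 over 14 epithelial and mesenchymal genes and 0.07 over 8 structured noncoding RNAs. With all 9 libraries 6 of these lists had a median of the other sign: ribosomal proteins −0.19, cholesterol synthesis −0.19, epithelial and mesenchymal −0.06, structured noncoding RNAs −0.07, and on the upper side unfolded protein stress 0.04 and hypoxia 0.18. In the others it was 0.17 for oxidative phosphorylation, −0.14 for the cell cycle, −0.35 for heat-shock chaperones, 0.13 for interferon-stimulated genes and 0.23 for p53 targets. Tlcd1, whose exons lie opposite the ribosomal protein gene Rpl23a, had 2134, 1624, 1199 and 854 counts in the D40A inputs and 1688, 2352, 1234, 1137 and 1393 in the CNOT7 inputs and gave 0.17 (95% interval −0.17 to 0.51) with the block and without replicate 10. The 1810014B01Rik model opposite Hsp90b1, a chaperone of the endoplasmic reticulum, gave 0.11 (−0.19 to 0.41), the Gm12868 model opposite the glucose transporter gene Slc2a1 0.09 (−0.31 to 0.49), and Cdk4, a kinase of the cell cycle, 0.15 (−0.21 to 0.52). In all 4 a 2-fold difference lay outside the interval of that fit. With all libraries and no block the interval of Gm12868 (−0.55 to 1.07) reached past 2-fold. Those of Tlcd1 (−0.75 to 0.62) and 1810014B01Rik (−0.46 to 0.94) did not.

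**Figure D4:**
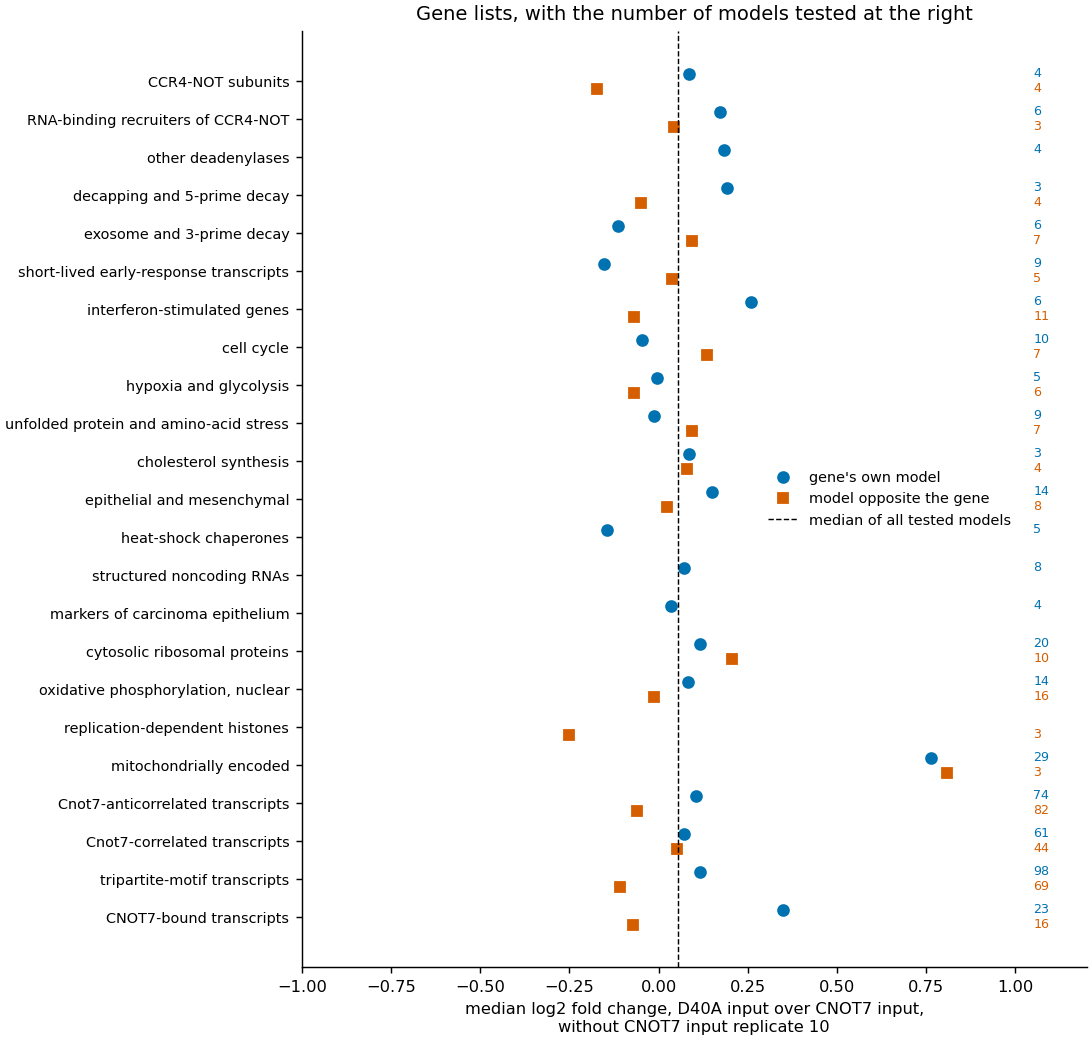
Median log2 fold change of D40A input over CNOT7 input, without CNOT7 input replicate 10, for each gene list with 3 or more tested models, on the genes' own models (blue circles) and on models with exons opposite them (orange squares), with the number of models at the right. All medians but those of the mitochondrially encoded genes, 0.76 and 0.81, lie between −0.25 and 0.35, around the 0.05 of all tested models (dashed).

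Markers of other cell types were at few counts, as were the epithelial markers themselves, so that the labelled cell type could be checked only weakly on own models. The 9 fibroblast markers summed to 0 to 13 counts per library and the 5 endothelial markers to 0 to 17, and none of either list passed the filter. Of 9 leukocyte markers only Csf1r did, with exons opposite Hmgxb3 and 12 to 49 counts, while the list summed to 17 to 68. The 10 markers of carcinoma epithelium summed to 21 to 120 counts, with 7 to 31 for Krt7 and 1 to 30 for Cdh1, and Wbscr25, opposite the claudin gene Cldn3, had 123 to 352. None of these lists had a member called.

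Without CNOT7 input replicate 10 the list with the highest median on own models was that of the mitochondrial genome, while with all libraries the CNOT7-bound transcripts (0.57) lay above it (0.50). Mitochondrial DNA is transcribed from both strands into long precursors that are cut into ribosomal, transfer and messenger RNAs, and CCR4-NOT acts on the cytoplasmic transcripts of nuclear genes. Of the 36 mitochondrial models 29 were tested. Without CNOT7 input replicate 10 their median log2 fold change was 0.76, with 28 of 29 above 0 against 2123 of 3798 over all tested models, and 0 were called. With the block as well the median was 0.95 and 17 of 29 were higher at an unadjusted p under 0.05, where 5.32% of all models were at such a p in either direction, and again 0 were called (lowest adjusted p 0.0893). That count rests on the library left out: with CNOT7 input replicate 10 kept, the block gave 6 of 29 at such a p and a median of 0.62, and without the block 2 were at such a p without that library and 0 with it. The 29 models come from 1 set of precursors and are not independent.

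Between libraries of the same number, the ratios were high over the whole set in replicate 6, and in replicate 8 on minus-strand models only. In replicate 6 the median log2 ratio of D40A input to CNOT7 input over the 29 models was 1.95, with 28 above 0. In replicate 8 it was 0.30, with 21 above 0. The medians were −0.03 in replicate 9 and 0.08 in replicate 10, with 13 and 18 above 0. In replicate 6 the models of both strands had high ratios, with medians of 2.21 over 20 plus-strand and 1.59 over 9 minus-strand models. In replicate 8 the medians were 0.18 for plus-strand and 2.08 for minus-strand models. The models of the 2 ribosomal RNAs ran the other way in replicate 8, where mt-Rnr2, the large one, gave −0.70 and mt-Rnr1 −0.65. The share of all counts on the 29 models was 7.33%, 11.6%, 15.0% and 15.5% in D40A input replicates 6, 8, 9 and 10 and 3.56%, 8.15%, 9.73%, 14.5% and 15.3% in CNOT7 input replicates 6 to 10, so that it differed more between replicate 6 and replicate 10 of either construct than between the constructs.

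**Figure D5:**
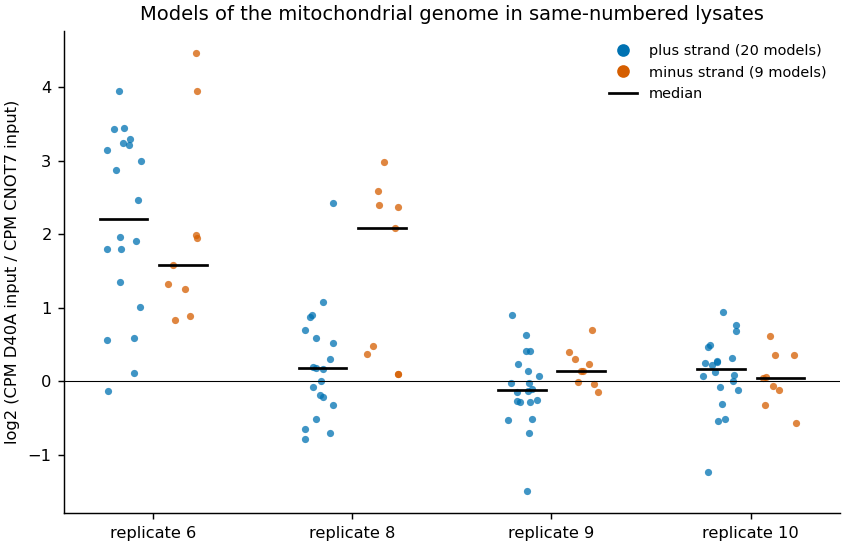
Log2 ratio of CPM in D40A input to CPM in CNOT7 input of the same replicate number for 29 models of the mitochondrial genome, by strand, with medians as black lines. The ratios are high on both strands in replicate 6 (medians 2.21 and 1.59), on the minus strand in replicate 8 (2.08), and near 0 in replicates 9 and 10.

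The most counted of these models after mt-Rnr2 was mt-Ts1, a serine transfer RNA on the minus strand (GRCm38 chrM:6870-6938) whose end overlaps mt-Co1, a subunit of cytochrome c oxidase. It had 4153, 14405, 17098 and 15862 counts in D40A input replicates 6, 8, 9 and 10 and 918, 17326, 2855, 13965 and 11576 in CNOT7 input replicates 6 to 10. The low values were those of CNOT7 input replicates 6 and 8. In CPM, CNOT7 input replicate 8 was at 5857 where the replicate 8 inputs of E247A/Y260A, M141R and vector were at 8566, 9220 and 10139 and D40A at 30945, so the D40A library was the distant one of that number. In replicate 6 D40A (7786) was near E247A/Y260A (8526), and CNOT7 (1961) near M141R (2596) and vector (1525). In replicate 10 D40A (43239) and CNOT7 (41845) both lay above E247A/Y260A (16543), M141R (14242) and vector (14891). The fit with the block and without CNOT7 input replicate 10 therefore sets a high D40A library against the lower replicate 10 inputs of the other constructs, and its values rest on this pairing as well as on replicates 6 and 8. The share of counts on the 29 models differed in the same way in replicate 10, at 15.5% in D40A and 15.3% in CNOT7 against 9.18%, 7.57% and 9.02% in the other 3. Its log2 fold change was 0.52 (95% interval −1.19 to 2.24) with all libraries, 0.81 (−1.01 to 2.63) without CNOT7 input replicate 10 and 1.48 (0.81 to 2.15) with the block as well, at an adjusted p of 0.0893 by edgeR's quasi-likelihood test. The transfer RNA models mt-Tc and mt-Ty, of the same strand, followed with 1.33 (0.71 to 1.94) and 1.12 (0.56 to 1.68). mt-Nd5, a subunit of complex I on the plus strand, had 5150, 3038, 2020 and 2594 counts in the D40A inputs and 475, 3555, 1506, 2170 and 1674 in the CNOT7 inputs. It gave 1.23 (0.32 to 2.13) in that fit, and the 475 of CNOT7 input replicate 6 was the lowest value. In CPM this library (1015) was near the lowest M141R (1093) and vector (1293) inputs. The models of mitochondrial messenger RNAs took 0.63%, 0.65% and 0.67% of the counts in replicate 6 of CNOT7, M141R and vector. In replicate 6 of D40A and E247A/Y260A they took 3.59% and 4.13%. All these are values of models as deposited, and which strand the reads came from was not tested. The mt-Ts1 model had a mean of 10906 counts over the 9 libraries and mt-Co1, on the other strand, 1483. What set these pairs apart was not tested.

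The other models with the most counts had overlapping groups. Ccdc107 (chr4:43492900-43495921, plus strand) begins within Rmrp, the RNA of RNase MRP, which lies on the minus strand, and it had 49931, 19853, 68135 and 135506 counts in the D40A inputs and 19544, 92513, 15158, 56840 and 127532 in the CNOT7 inputs. Its highest values were those of replicate 10 of both constructs. Its log2 fold change was 0.11 (95% interval −1.52 to 1.74) with all libraries, 0.93 (−0.60 to 2.47) without CNOT7 input replicate 10 and 0.65 (0.23 to 1.06) with the block as well, at an adjusted p of 0.627 by edgeR's quasi-likelihood test. Galnt2 gave −0.02 (−0.77 to 0.72) without CNOT7 input replicate 10, and mt-Rnr2 0.45 (−0.54 to 1.44). Rn7s1, a signal recognition particle RNA, went from 0 counts in D40A input replicate 9 and in CNOT7 input replicate 10 to 2699 in D40A input replicate 6, and its interval of −4.68 to 2.83 without CNOT7 input replicate 10 covers more than a 4-fold difference in both directions.

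Since no model passed the test, those with the lowest unadjusted p without CNOT7 input replicate 10 are given as values that did not pass. The 12 of the higher side were Gm37982, Zfp655, Use1, Rbbp8, Gm9968, Acad10, Rncr4, Syvn1, Fam169b, Gpatch3, Apom and Ppm1e. Most were at few counts. Gm37982 (chr1:167242457-167251492, within the span of Uck2 on the other strand) had 12, 13, 5 and 14 counts in the D40A inputs and 6, 5, 3, 3 and 1 in the CNOT7 inputs, and in CPM the lowest D40A value, 16.3, lay above the highest CNOT7 value, 12.8. Its log2 fold change was 1.74 (95% interval 0.71 to 2.77) with all libraries and 1.63 (0.57 to 2.70) without CNOT7 input replicate 10, at an adjusted p of 0.9994 by edgeR's quasi-likelihood test. Its CNOT7 inputs with 3, 3 and 1 counts are at or under the floor of 3 counts. The fold of Gm37982 and the gap between its groups thus rest on few counts. Rbbp8, which encodes the DNA end resection factor CtIP, had 22.5 to 43.6 CPM in the D40A inputs and 10.8 to 18.5 in the CNOT7 inputs, without overlap, and gave 1.02 (0.20 to 1.83). Zfp655, a zinc finger gene, had 45, 20, 21 and 7 counts against 9, 27, 12, 5 and 0, with overlapping groups, and gave 1.22 (0.37 to 2.07). Groups without overlap in CPM were found for 8 models on the higher side with all 9 libraries (0.208% of 3848) and for 16 without CNOT7 input replicate 10 (0.421% of 3798). No fold is given for Gm9968 and Apom, whose CNOT7 inputs other than replicate 10 had 3 counts or fewer.

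On the lower side the 12 lowest p belonged to Vars, Cct6a, Gm19918, Lrrc58, Rbbp4, Gm14764, Usp16, Gm10642, Gm11537, Msn, Oraov1 and Gm13936. Vars, the valyl-tRNA synthetase gene (chr17:35000987-35016322), had 5.62, 15.0, 13.0 and 10.9 CPM in the D40A inputs and 19.2, 22.4, 26.7, 36.2 and 25.3 in the CNOT7 inputs, without overlap. It gave −1.20 (95% interval −2.02 to −0.38) with all libraries and −1.24 (−2.09 to −0.39) with the block and without replicate 10. Its 3 to 7 counts in the D40A inputs are near the floor of 3 counts. Rbbp4, a histone chaperone gene, had 1, 2, 7 and 5 counts in the D40A inputs and 13, 29, 10, 7 and 10 in the CNOT7 inputs, and Cct6a, a subunit of the TRiC chaperonin, had 5, 3, 2 and 2 against 10, 18, 9, 5 and 1. No fold is given for Rbbp4 and Cct6a, since D40A libraries were at 1 or 2 counts. Folds given for other models, such as Vars, Gm37982 and Cxcl1, also rest in part on libraries at or under 3 counts, and are limited by that. Non-overlapping groups on the lower side numbered 10 with all 9 libraries (0.26%) and 23 without CNOT7 input replicate 10 (0.606%).

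Oraov1 was the best counted of these 24 models, at 122 to 938 counts in the 9 libraries. It lies at chr7:144915100-144931701 on the plus strand with exons opposite those of Ccnd1, the gene of cyclin D1, and had 316, 319, 122 and 131 counts in the D40A inputs and 301, 938, 398, 163 and 369 in the CNOT7 inputs. In CPM the D40A inputs held 357 to 685 and the CNOT7 inputs 591 to 1334, so the groups overlapped. Its log2 fold change was −0.80 (95% interval −1.48 to −0.13) with all libraries, −0.59 (−1.15 to −0.02) without CNOT7 input replicate 10 and −0.38 (−0.71 to −0.06) with the block as well, at an adjusted p of 0.804 by edgeR's quasi-likelihood test. The direction stayed and the size fell at each step. The CNOT7 library with the highest value was replicate 10.

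In the fit with the block and without CNOT7 input replicate 10 other models had the lowest p, and they are named here after their values were seen. The lowest was that of Gm17268 (chr11:82028224-82038562, minus strand), which overlaps the span of Ccl2 on the other strand but none of its exons. It had 59, 31, 37 and 3 counts in the D40A inputs and 33, 20, 12, 8 and 0 in the CNOT7 inputs, and the groups overlapped, while D40A was the higher in all 4 same-numbered pairs (log2 ratios 0.62, 1.31, 1.92 and 1.64 in replicates 6, 8, 9 and 10). Its log2 fold change was 1.41 (95% interval 0.84 to 1.98), at an adjusted p of 0.0847 by edgeR's quasi-likelihood test. With CNOT7 input replicate 10 kept it was 1.44, at an adjusted p of 0.239, and without the block 1.11 (−0.51 to 2.72). The next 5 shared an adjusted p of 0.0893 and were 9430015G10Rik, Gm16702 and B4galt7 beside mt-Ts1 and mt-Tc. Gm16702 gave 1.01 (0.55 to 1.46), B4galt7, a galactosyltransferase of proteoglycan synthesis, 1.15 (0.62 to 1.69) and 9430015G10Rik 1.86 (1.04 to 2.69). 9430015G10Rik had 9, 5, 56 and 10 counts in the D40A inputs and 0, 26, 0, 19 and 10 in the CNOT7 inputs. Its fold thus rests in part on libraries with 0 counts. The groups overlapped for each of these models. In replicate 10 the ratio of D40A to CNOT7 was below 0 on the log2 scale for Gm16702, B4galt7 and 9430015G10Rik, at −1.05, −0.33 and −0.36. For B4galt7 it was below 0 in replicate 8 too (−0.17).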

How the data were processed

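The authors deposited counts of reads per gene, without normalization, for 26899 Ensembl identifiers. The labels name BWA, HTSeq and mm9, and the annotation and strand setting of the counting are not given in the sources used here. GENCODE M21 (GRCm38) holds 26555 of them, and from it positions and opposite-strand overlaps were taken. The labels call the libraries biological replicates. The lowest chi-square per degree of freedom between replicates was 9.61.

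The 24 inputs were fitted with edgeR 4.0.16 (R 4.3.3): default filter on low counts, TMM scaling, quasi-likelihood test on the construct, Benjamini-Hochberg adjustment. CPM values use TMM. The study's methods name another test in R for differential expression, which was not used because the values are counts. DESeq2 1.42.0, limma 3.58.1 and other scalings, filters and library sets were alternatives. Deviations from the group means correlated at 0.38 to 0.61 for same-numbered libraries and −0.44 to 0.15 for others, so the numbers pair the samples. The fits were tested on simulated counts with known changes. Those counts held no effect of replicate number and no library like CNOT7 input replicate 10. A replicate effect was simulated only in a run without changes. The simulation therefore does not show how well the fits find changes in these libraries. Named were the CCR4-NOT and BTG/TOB members, the 12 lowest p per direction without CNOT7 input replicate 10, the 3 most counted members of each list, given where a result turns on them, and the 5 most counted models. Models opposite list members, the comparison by opposite strand and the fit of the replicate number were added after the data were seen. The comparison and its lists were chosen with earlier results of these data known.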

Additional observations from a re-analysis of the deposited data

Results flagged for a closer look

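In 80 groups of libraries (the CPM of 36 genes and 4 shares of counts, each in D40A input and in CNOT7 input) 12 values lay far from the rest of their group by Dixon's test, and 8 of the 12 were values of CNOT7 input replicate 10. Chance marks about 1 group in 20 by this test, but that rate does not hold here: 24 of the genes were chosen for a low p without that library, which favours even values in the other CNOT7 inputs, and the 7 genes marked in that library are all among them. In that library Use1 had 32.53 CPM (4.27 to 10.9 in the other CNOT7 inputs), Gm9968 14.46 (0 to 3.62), Rncr4 72.3 (0 to 11.2), Syvn1 133.7 (10.7 to 30.2), Gpatch3 36.15 (6.71 to 10.7) and Gm13936 46.99 (12.8 to 22.4), all above the rest, and Cct6a had 3.615 (18.1 to 21.4), below the rest. Models with only an intron opposite took 2.531% of its counts (10.96% to 14.1% in the others). In CNOT7 input replicate 6 models with an exon opposite took 77.11% of the counts (69.8% to 71.8% in the others). In D40A input replicate 9 Cnot6 was at 39.09 CPM (7.50 to 10.7 in the other D40A inputs), Btg1 at 71.66 (8.18 to 16.9) and Gm19918 at 61.89 (40.9 to 43.1).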

How the results depend on the processing

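No gene was called under any alternative but the one without a filter on low counts, where 3 were higher and 24 lower among 24646 tested. Of those 27, 3 were also tested with the filter, and 25 held over 50% of their counts over the 24 inputs in 1 library. Leaving out 1 library at a time gave 0 to 0 called in each direction. At an unadjusted p under 0.05 it gave 17 to 79 higher and 14 to 54 lower, with the highest counts without D40A input replicate 6. The difference in Cnot7 ranged from −0.0199 (without CNOT7 input replicate 10) to 0.877 (without CNOT7 input replicate 6), and the sign turned only without replicate 10. Without TMM the median log2 fold change of all genes moved from 0.04 to −0.10, and the split at an unadjusted p under 0.05 from 23 higher and 27 lower to 7 and 42. Without CNOT7 input replicate 10 it moved from 0.05 to −0.15 and from 31 and 14 to 7 and 46. So a direction over many genes at this level depends on the scaling. The replicate block raised the genes at such a p from 50 to 195 but changed no call. Of 1906 values of 97 named genes under the alternatives 52 moved by more than their error, 34 of them in settings without CNOT7 input replicate 10, and 250 had the other sign. Of 454 list medians 7 moved and 95 had the other sign. At 337861 to 826768 counts per library, the 95% interval lay within 2-fold for 21.8% of models with all libraries and for 56.2% with the block and without CNOT7 input replicate 10.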
